A study of Mus musculus with 15 samples.

Results

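The suppressor of cytokine signaling (SOCS) family was followed across the dectin-1 response of D1 cells, a long-term dendritic cell (DC) line of splenic origin from the mouse strain C57BL/6. The family comprised 8 genes, Cish and Socs1 to Socs7, chosen by exact gene symbol in the array annotation out of 19937 genes measured, and all 8 were on the arrays. They carried 12 single-symbol probe sets between them, and the probe set with the highest mean over all arrays stood for each gene. Expression was profiled on 15 one-color Affymetrix Mouse Gene 1.0 ST arrays in 5 groups of 3, labeled as biological replicates: curdlan + FK506 for 2 h or 4 h, curdlan for 2 h or 4 h, and nontreated. Curdlan, a beta-glucan ligand of dectin-1, was given at 10 µg/ml. FK506 blocks calcineurin, the phosphatase that lets NFAT transcription factors enter the nucleus. All groups shared the culture of this 1 line, whose medium was supplemented, per the study's methods, with supernatant of fibroblasts that secrete GM-CSF, itself a cytokine that signals through JAK2 and STAT5. Cells given FK506 without curdlan are not analysed here, and the same 3 nontreated arrays served both times.

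SOCS proteins are feedback inhibitors of cytokine receptors. When a cytokine binds, Janus kinases (JAKs) on its receptor phosphorylate STAT transcription factors, which switch on target genes that include SOCS genes themselves. Each SOCS protein has an SH2 domain, which docks onto phosphorylated receptors or kinases, and a SOCS box, which recruits a ubiquitin ligase, and Socs1 and Socs3 can in addition block the JAK directly. In DCs this loop limits how strongly the cells answer interferons, GM-CSF and interleukins.

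Values are log2 RMA levels, so that a difference of 1 is a doubling on the linear scale. Array medians lay between 6.45 and 6.57, arrays of 1 group correlated at 0.993 to 0.999 over genes, and 0 pairs were identical. The arrays farthest from their own groups were curdlan 2 h replicate 3 (array weight 0.119) and nontreated replicate 1 (0.0781). No count of raised or lowered SOCS genes changed without both. Of 15 DC markers 14 lay above the median gene (6.76), while 0 of 6 T cell, 0 of 4 B cell, 0 of 5 NK cell and 0 of 5 neutrophil markers did. Fibroblast markers did in 3 of 7 cases, and the mean level of that list lay between 5.86 and 5.99 with FK506, between 5.88 and 6.25 with curdlan, and between 5.94 and 6.31 in nontreated cells. The part of this spread in the results was not tested. A gene was called raised or lowered at a limma adjusted p under 0.05, taken over all genes, together with a fold of at least 1.5 (log2 0.585).

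The promoters of Cish and Socs3 are shown because both genes were raised by curdlan and both windows hold the STAT-type motif TTCNNNGAA. That motif reads the same on both strands, so that every match counts on either, and matches are in capitals. The windows run from 250 bases before to 50 after an annotated start (RefSeq, GRCm38.p6, 5′ to 3′ on the strand of the gene). The Cish window is chr9:107296409-107296708 on the plus strand and the Socs3 window is chr11:117969317-117969616 on the minus strand, inside the annotated span of the gene. Socs1 (chr16:10785487-10785786, minus strand) is set beside them as a family member whose level did not pass the test in any comparison and whose window holds no match.
Cish: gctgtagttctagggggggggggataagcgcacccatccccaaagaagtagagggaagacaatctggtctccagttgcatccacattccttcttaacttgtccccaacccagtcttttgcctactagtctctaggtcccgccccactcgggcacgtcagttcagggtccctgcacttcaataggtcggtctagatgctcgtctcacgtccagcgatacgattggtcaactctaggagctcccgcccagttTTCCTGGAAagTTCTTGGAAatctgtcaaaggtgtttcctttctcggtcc
Socs3: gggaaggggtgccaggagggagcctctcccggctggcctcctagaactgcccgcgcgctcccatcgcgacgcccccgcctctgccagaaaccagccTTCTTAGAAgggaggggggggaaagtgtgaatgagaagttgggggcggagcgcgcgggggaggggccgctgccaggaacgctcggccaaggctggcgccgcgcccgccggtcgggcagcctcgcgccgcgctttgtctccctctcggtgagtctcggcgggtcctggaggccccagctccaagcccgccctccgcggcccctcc
Socs1: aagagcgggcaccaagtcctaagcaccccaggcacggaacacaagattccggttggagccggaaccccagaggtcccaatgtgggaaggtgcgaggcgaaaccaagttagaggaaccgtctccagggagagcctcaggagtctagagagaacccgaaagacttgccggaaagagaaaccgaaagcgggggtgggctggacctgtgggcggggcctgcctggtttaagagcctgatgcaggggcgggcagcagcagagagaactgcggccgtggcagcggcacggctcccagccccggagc

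Cish carried 2 matches just after its start, at bases 1 to 9 and 12 to 20, and Socs3 carried 1, at bases -154 to -146 counted from the start. The Socs4 window (chr14:47276670-47276969, plus strand) held none. TTCNNNGAA occurs in 2726 of 32851 mouse promoters of this length, a share of 8.30%. The related STAT6-type motif, with 1 more free base in its middle, was in none of these 4 windows and occurs in 6.95% of all promoters. The NFAT core GGAAA, searched on both strands, was in all 4 windows, but 61.3% of all promoters hold it, and in Cish 3 of its 4 matches overlap the STAT-type motif. A match describes letters only, and binding was not measured here. The windows shown were picked by both response and match, so the contrast between them is no test of a link. Socs2, Socs5, Socs6 and Socs7 have no entry in the promoter table, and Socs5 and Socs7 were among the genes raised by curdlan.

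Cells given curdlan for 2 h were set against nontreated cells to read the early response of the family. Socs3, Socs5 and Cish rose at 2 h, so that 3 of 8 SOCS genes were raised and 0 lowered, where 2.2% of all genes were raised and 1.4% lowered. At 4 h Socs3, Cish and Socs7 were the 3 raised genes and again 0 were lowered, against 5.05% of all genes raised and 4.15% lowered. The median log2 difference of the family was 0.27 at 2 h and 0.27 at 4 h, beside -0.04 and -0.12 over all genes. All 3 curdlan values lay above all 3 nontreated values in 4 of 8 SOCS genes at 2 h (9.14% of all genes) and in 7 of 8 at 4 h (17.1% of all genes). These counts describe the 8 genes and were not tested as a set. The RNA was bulk RNA of whole cultures, in which fewer cells of a type and less RNA per cell cannot be told apart.

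**Figure D1:**
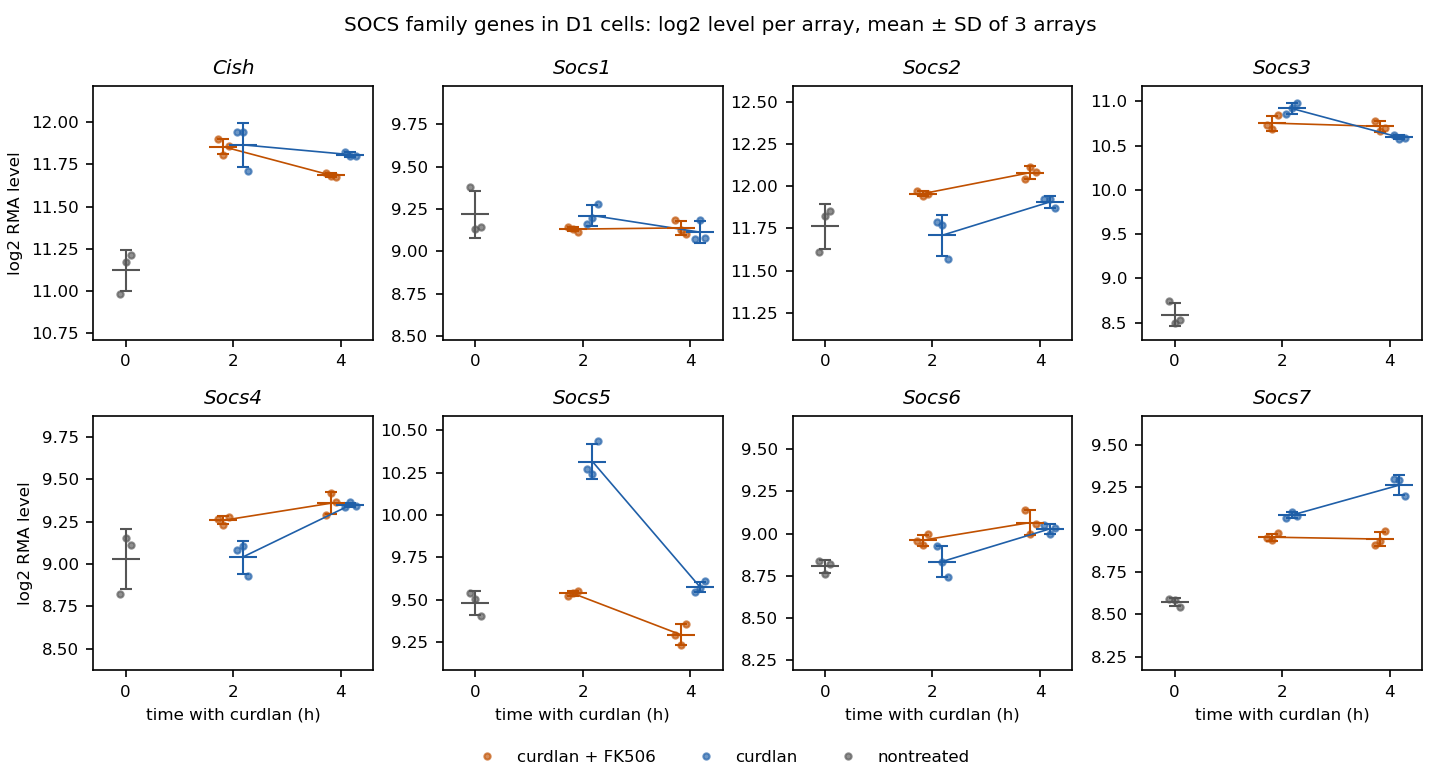
Log2 RMA level of each SOCS family gene (y axis, a scale per panel) against hours with curdlan (x axis), with nontreated cells at 0. Points are single arrays and bars are the mean ± SD of 3 arrays. Socs3 sits between 10.57 and 10.98 in all 12 curdlan arrays with or without FK506, against 8.50 to 8.74 in nontreated cells, and Socs5 sits between 10.24 and 10.44 in the 3 arrays of curdlan 2 h and between 9.23 and 9.61 in the other 12.

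Socs3, which binds the shared gp130 receptor chain and restrains signaling by IL-6 and its relatives, had the largest curdlan difference of the 8. The gene spans chr11:117966079-117970336. Its level was 10.85, 10.92 and 10.98 in cells given curdlan for 2 h, against 8.74, 8.50 and 8.54 in nontreated cells. The groups were far apart, with a difference of 2.33 ± 0.07 (SE), a 5.02-fold rise (limma adjusted p = 1.3e-11). At 4 h the curdlan arrays read 10.62, 10.57 and 10.58, still 4.00-fold above nontreated cells (2.00 ± 0.07, limma adjusted p = 3.2e-11). Every 4 h array lay below every 2 h array, and that fall of 0.33 ± 0.07 passed the p threshold (limma adjusted p = 0.00215) but not the fold threshold.

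Cish, a STAT5 target whose product damps STAT5 signaling at receptors such as those for IL-2 and GM-CSF, was raised at both times. The gene spans chr9:107296659-107302784. Its level was 11.94, 11.94 and 11.71 after 2 h of curdlan, against 10.98, 11.17 and 11.21 in nontreated cells, with no overlap. The difference was 0.74 ± 0.07, or 1.67-fold (limma adjusted p = 2.3e-06). At 4 h the 3 curdlan arrays lay within 11.80 to 11.82, a difference from nontreated cells of 0.68 ± 0.07, or 1.61-fold (limma adjusted p = 2.0e-06). The 2 h and 4 h levels overlapped and differed by -0.06 ± 0.07 (95% interval -0.20 to 0.09, limma adjusted p = 0.54).

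Socs5, known to act on the epidermal growth factor receptor, was raised at the early time and lower again at the late one. The gene spans chr17:87107278-87137647. It read 10.27, 10.24 and 10.44 after 2 h of curdlan, against 9.54, 9.50 and 9.40 in nontreated cells, a difference of 0.84 ± 0.06, or 1.79-fold (limma adjusted p = 1.0e-07). At 4 h it read 9.55, 9.57 and 9.61, every array just above the nontreated ones (0.09 ± 0.06, limma adjusted p = 0.189). The 4 h level was lower than the 2 h level by a log2 difference of -0.74 ± 0.06 (limma adjusted p = 3.5e-07). Socs5 was the 1 SOCS gene of 8 lowered between 2 h and 4 h and 0 were raised, beside 1.3% of all genes lowered and 2.79% raised.

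Socs7, which is known to bind components of insulin signaling, was higher at both times and passed the test at 4 h. The gene spans chr11:97362292-97398542. It read 9.07, 9.11 and 9.08 after 2 h of curdlan, against 8.59, 8.59 and 8.54 in nontreated cells, and these groups did not overlap. That difference of 0.51 ± 0.04 (1.43-fold, limma adjusted p = 5.2e-07) stayed under the fold threshold. At 4 h the level was 9.30, 9.30 and 9.20, a difference of 0.69 ± 0.04 from nontreated cells, or 1.61-fold, which passed both thresholds (limma adjusted p = 9.6e-09). The step between 2 h and 4 h was 0.18 ± 0.04 (limma adjusted p = 0.00478).

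The other 4 SOCS genes differed by less than the fold threshold on the probe sets used, while another Socs6 probe set, given further on, read 0.61 at 4 h of curdlan. Socs1, a direct JAK inhibitor and the main brake on interferon gamma signaling, lay between 9.07 and 9.38 on all 15 arrays. Its differences from nontreated cells were -0.01 ± 0.06 at 2 h (95% interval -0.14 to 0.13) and -0.11 ± 0.06 at 4 h (-0.24 to 0.03), and median centring of the arrays turned both to just above 0.

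Socs4, which like Socs5 acts on the epidermal growth factor receptor, read 9.34, 9.37 and 9.34 after 4 h of curdlan, against 8.82, 9.16 and 9.11 in nontreated cells (0.32 ± 0.08, limma adjusted p = 0.0045). Nontreated replicate 1 was the low array of that group. Socs6, a SOCS protein that binds the receptor KIT, read 9.05, 9.00 and 9.04 at 4 h, against 8.84, 8.76 and 8.82 in nontreated cells (0.22 ± 0.05, limma adjusted p = 0.00426). At 2 h Socs4 and Socs6 differed by 0.01 ± 0.08 and 0.03 ± 0.05, neither past the p threshold, and the sign of the Socs4 value at 2 h turned with array weights. Socs2, the inhibitor of growth hormone signaling, differed from nontreated cells by -0.05 ± 0.07 at 2 h and 0.14 ± 0.07 at 4 h, neither past the p threshold (limma adjusted p = 0.729 and 0.106), and the 4 h value was 0.07 without nontreated replicate 1.

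**Figure D2:**
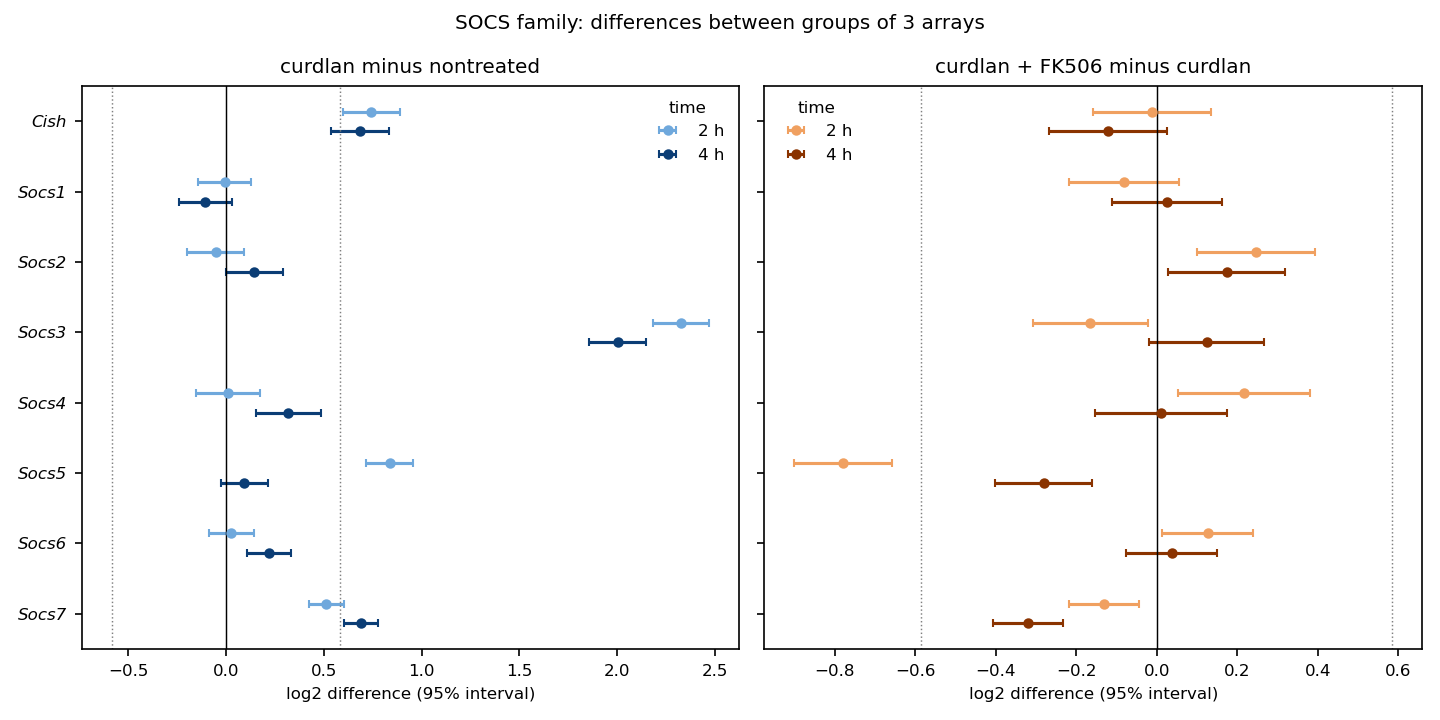
Log2 difference with its 95% interval (x axis) for each SOCS gene (y axis), left for curdlan minus nontreated and right for curdlan + FK506 minus curdlan, at 2 h and 4 h. Dotted lines mark the 1.5-fold threshold. Socs3 lies at 2.33 and 2.00 on the left and at -0.17 and 0.12 on the right, and Socs5 at 2 h is the 1 gene beyond a dotted line on the right.

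FK506 was added to curdlan to ask which of these changes need calcineurin. At 2 h Socs5 was the 1 SOCS gene lowered by FK506 and 0 of 8 were raised, beside 0.762% of all genes lowered and 0.361% raised. At 4 h 0 of 8 were lowered or raised by limma (1.53% and 0.211% of all genes), and 2 of 8, Socs5 and Socs7, were lower at the adjusted p alone (6.03% of all genes). The family median was -0.05 at 2 h and 0.02 at 4 h, beside -0.03 and 0.03 over all genes. Without overlap, 3 SOCS genes lay higher and 4 lower with FK506 at 2 h, where 16.2% and 12.4% of all genes did, and 2 lay higher and 3 lower at 4 h, where 21.7% and 14.5% did.

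With curdlan + FK506 for 2 h, Socs5 read 9.52, 9.54 and 9.55, against 10.27, 10.24 and 10.44 with curdlan alone. Every FK506 array was lower than every curdlan array, by a log2 difference of -0.78 ± 0.06, a fold of 0.582 (limma adjusted p = 7.8e-07). The Socs5 level with curdlan + FK506 overlapped that of nontreated cells, with a difference of 0.06 ± 0.06 (95% interval -0.06 to 0.18, limma adjusted p = 0.47). At 4 h Socs5 read 9.29, 9.23 and 9.36 with curdlan + FK506, against 9.55, 9.57 and 9.61 with curdlan (-0.28 ± 0.06, limma adjusted p = 0.00392), and it then lay below nontreated cells as well (-0.19 ± 0.06, limma adjusted p = 0.0235). Neither of these 4 h differences reached the fold threshold.

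The FK506 effect on Socs5 differed between the times. The 4 h effect minus the 2 h effect was 0.50 ± 0.08 (95% interval 0.33 to 0.67, limma adjusted p = 0.00224), and Socs5 was the 1 SOCS gene past the p threshold in this test, beside 1.39% of all genes higher and 2.98% lower at that threshold. Past both limma thresholds were 0 of 8 SOCS genes, beside 0.171% of all genes raised and 1.06% lowered. Rcan1, a calcineurin inhibitor gene and a common readout of calcineurin-NFAT activity, is set beside it as a check on the drug. Its FK506 differences were -1.57 ± 0.06 at 2 h and -0.69 ± 0.06 at 4 h, with 4 h minus 2 h at 0.88 ± 0.09 (limma adjusted p = 8.1e-05). Actb differed by 0.01 ± 0.03 and 0.00 ± 0.03 with FK506, and the dectin-1 gene Clec7a by 0.09 ± 0.05 and -0.05 ± 0.05, so neither passed the test.

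Socs3 stayed high with FK506. It read 10.73, 10.68 and 10.85 with curdlan + FK506 for 2 h, against 10.85, 10.92 and 10.98 with curdlan, with every FK506 array below every curdlan array before rounding. The difference was -0.17 ± 0.07 (95% interval -0.31 to -0.02, limma adjusted p = 0.183). At 4 h the order was the other way, with 10.78, 10.67 and 10.70 for curdlan + FK506 and 10.62, 10.57 and 10.58 for curdlan (0.12 ± 0.07, 95% interval -0.02 to 0.27, limma adjusted p = 0.349). Set against nontreated cells, Socs3 with curdlan + FK506 was 4.48-fold higher at 2 h and 4.37-fold higher at 4 h (limma adjusted p = 4.2e-11 and 3.1e-11).

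Cish at 2 h overlapped between the groups, with 11.90, 11.81 and 11.86 for curdlan + FK506 and 11.94, 11.94 and 11.71 for curdlan, a difference of -0.01 ± 0.07 (95% interval -0.16 to 0.14) whose sign turned with median centring. At 4 h all FK506 arrays (11.70, 11.68 and 11.68) lay under all curdlan arrays (11.82, 11.80 and 11.80), yet the difference of -0.12 ± 0.07 was not past the threshold (95% interval -0.27 to 0.02, limma adjusted p = 0.376). The curdlan + FK506 arrays were 1.66-fold above nontreated cells at 2 h (limma adjusted p = 4.2e-06). At 4 h the fold was 1.48, just short of the fold threshold (limma adjusted p = 2.1e-05), and the gene passed it when nontreated replicate 2 or replicate 3 was left out (log2 0.59 and 0.61).

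Socs7 at 4 h read 8.91, 8.93 and 8.99 with curdlan + FK506, against 9.30, 9.30 and 9.20 with curdlan. The groups were separate, by -0.32 ± 0.04 or a fold of 0.802, past the p threshold (limma adjusted p = 1.1e-04) and short of the fold threshold. At 2 h the difference was -0.13 ± 0.04 (limma adjusted p = 0.0748), from 8.95, 8.94 and 8.98 with FK506 and 9.07, 9.11 and 9.08 without. Socs7 with curdlan + FK506 still exceeded nontreated cells by 0.38 ± 0.04 at 2 h and 0.37 ± 0.04 at 4 h. Its FK506 effect at 4 h minus that at 2 h was -0.19 ± 0.06 (limma adjusted p = 0.0918).

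Socs2 was higher with FK506 at 2 h. Its level with curdlan + FK506 for 2 h was 11.97, 11.94 and 11.95, against 11.79, 11.77 and 11.57 with curdlan, a difference of 0.25 ± 0.07 (limma adjusted p = 0.0422). The array at 11.57 was curdlan 2 h replicate 3, the one that stood apart, and without it the difference was 0.18 and no longer past the p threshold (limma adjusted p = 0.162). At 4 h Socs2 read 12.04, 12.11 and 12.09 with curdlan + FK506, against 11.93, 11.92 and 11.87 with curdlan (0.17 ± 0.07, limma adjusted p = 0.146). Socs4 and Socs6 differed with FK506 at 2 h by 0.22 ± 0.08 and 0.13 ± 0.05 and differed by 0.01 ± 0.08 and 0.04 ± 0.05 at 4 h, none past the p threshold. Socs1 differed by -0.08 ± 0.06 at 2 h and 0.03 ± 0.06 at 4 h.

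Compared with nontreated cells, curdlan + FK506 left 2 SOCS genes raised at 2 h, Socs3 and Cish (1.81% of all genes raised), and 1 at 4 h, Socs3 (2.95%), with 0 lowered at 2 h (0.537%) or 4 h (2.43%). These comparisons share their nontreated arrays with those of curdlan alone. At the adjusted p alone Cish, Socs3 and Socs7 were higher at 2 h (7.62% of all genes), and Cish, Socs2, Socs3, Socs4, Socs6 and Socs7 at 4 h (10.3%), with Socs5 lower (15.7%). Between 4 h and 2 h of curdlan + FK506, 0 of 8 SOCS genes passed both limma thresholds (0.903% of all genes raised, 0.782% lowered) and Socs5 was lower at the adjusted p alone (-0.24 ± 0.06, limma adjusted p = 0.00831, 8.64% of all genes).

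The order of the 5 group means set the genes apart. For Socs3 and for Cish, of the 4 steps between neighboring groups the one next to nontreated cells alone passed the p threshold. Neighbors short of it could still be separate, as both FK506 steps of Socs3 were. For Socs5 the top step, between curdlan 2 h and curdlan 4 h, and the lowest, between curdlan + FK506 4 h and nontreated cells, passed, and the groups between overlapped their neighbors. For Socs7 the lowest step, next to nontreated cells, and the highest, between curdlan 4 h and curdlan 2 h, passed. For Socs1, Socs2, Socs4 and Socs6 no step between neighbors passed the p threshold. All neighbors of Socs1 overlapped, while 3 of the 4 steps of Socs2 and 2 of the 4 steps each of Socs4 and Socs6 were between groups that did not overlap. Such separation is common among all genes. With FK506 at 4 h, 21.7% lay higher and 14.5% lower without overlap. Shares of all genes for sorted neighbors were not computed, so these steps do not establish an order.

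Socs2, Socs3 and Socs6 had further probe sets, and these are given as values with no test. The other Socs3 probe set differed by 2.00 ± 0.11 (SE) at 2 h and 1.80 ± 0.11 at 4 h with curdlan, and differed by -0.08 ± 0.11 and 0.08 ± 0.11 with FK506. The other Socs2 probe set, annotated with the same RefSeq transcripts, differed by -0.22 ± 0.07 between curdlan 2 h and nontreated cells and by 0.33 ± 0.07 with FK506 at 2 h. A Socs6 probe set whose annotation lists the very transcripts of the one used read 0.61 ± 0.14 with curdlan at 4 h, against 0.22 ± 0.05 for the one used, and the size of the Socs6 difference is uncertain to that extent. Whether both probe sets of Socs2, or of Socs6, measure the same locus was not tested, so the values of these genes hold for the probe sets used. The last Socs6 probe set had a mean of 3.66, below the lower quartile of genes (5.28), and differed by 0.11 ± 0.06 or less in each of these comparisons.

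**Figure D3:**
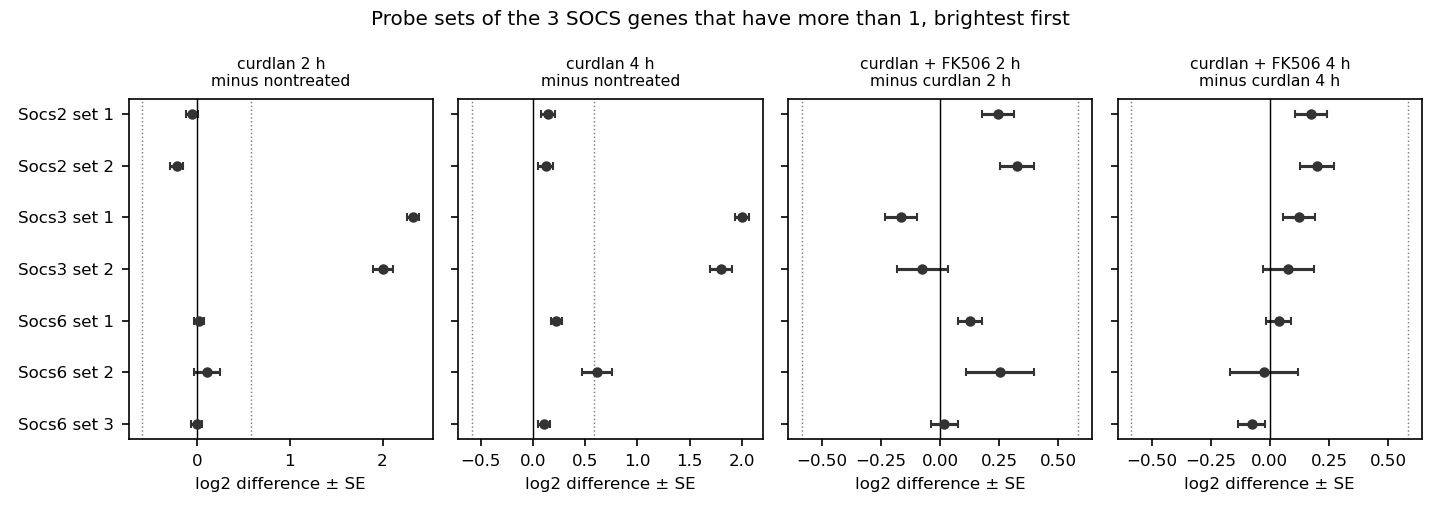
Log2 difference ± SE (x axis) of every probe set of Socs2, Socs3 and Socs6 (y axis, highest mean first, the first of each gene being the one used) in the 2 curdlan and 2 FK506 comparisons. Dotted lines mark the 1.5-fold threshold. Both Socs3 sets lie between 1.80 and 2.33 with curdlan, and the second Socs6 set lies at 0.61 at 4 h with a wider error than the first.

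Across the 15 arrays, the gene levels most like those of each raised SOCS gene were sought among 2313 genes that passed the test in at least 1 comparison. Arrays fall into 5 groups, so the correlations describe shared group patterns, together with shared deviations of single arrays, and carry no test. Socs3 was most like Trib1, a pseudokinase gene (r = 0.997), Atf3, a stress-induced transcription factor (0.996), and Dusp5, a phosphatase of ERK kinases (0.994). These 3 values rest in part on the gap between nontreated cells and the rest, and over the 12 arrays given curdlan r was 0.84, 0.89 and 0.60 in the same order. Spearman's rho over the 15 arrays was 0.66 for Dusp5 and between 0.79 and 0.96 for the other 11 genes named here. Cish was most like Bhlhe40, a transcriptional repressor (0.990), the co-chaperone gene Dnajb5 (0.989) and Jund, an AP-1 subunit (0.987). Socs5 was most like Esyt3, an extended synaptotagmin (0.986), Phf8, a histone demethylase (0.967), and Hspa4l, a heat shock protein (0.962). Socs7 was most like Mafk, a small Maf factor (0.989), Grhl1, a grainyhead-like factor (0.987), and the chemokine Cxcl10 (0.980). Within the family the highest correlation over the 15 arrays was that of Cish with Socs3 (0.94), followed by Socs2 with Socs4 (0.91), and the lowest was that of Socs1 with Socs4 (-0.82). The outlying arrays, nontreated replicate 1 and curdlan 2 h replicate 3, had the highest Socs1 levels (9.38 and 9.28). They also had the lowest levels of Socs4 (8.82 and 8.93) and of Socs2 (11.61 and 11.57). The family values were not computed without these arrays, nor over the arrays given curdlan alone.

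The pathway on which SOCS proteins act was read through lists of its parts, starting with the ligands. Of 28 measured cytokine genes whose receptors signal through JAKs and STATs, 6 rose at 2 h of curdlan and 10 at 4 h, and 0 fell, where 2.2% and 5.05% of all genes rose. The list medians were 0.03 and 0.01, beside -0.04 and -0.12 over all genes, and most ligands did not pass the test. Il2, the T cell growth factor, reached 11.1 ± 0.12 (SD, n = 3) after 2 h of curdlan, against 4.83 ± 0.13 in nontreated cells, a level below the lower quartile of genes. Lif, a gp130 cytokine, differed by 2.47 ± 0.08 (SE) at 2 h, and Clcf1, another gp130 ligand, by 2.44 ± 0.07. Csf2, the gene of GM-CSF, differed by 3.31 ± 0.14 at 4 h, and Il12b and Il23a, subunits of IL-12 and IL-23, by 5.40 ± 0.10 and 5.71 ± 0.14. FK506 lowered 5 of the 28 at 2 h and 10 at 4 h and raised 0, where it lowered 0.762% and 1.53% of all genes. Both counts of 10 at 4 h include Il6 and Tslp, which lay below the lower quartile of genes (5.28) in every group. Their highest group means, at curdlan 4 h, were 4.45 and 4.87.

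Csf2 was lower with FK506 at both times. It read 6.41 ± 0.10 (SD, n = 3) with curdlan + FK506 for 2 h, against 8.08 ± 0.35 with curdlan, and 6.39 ± 0.08 with curdlan + FK506 for 4 h, against 9.33 ± 0.02 with curdlan. The FK506 differences were -1.67 ± 0.14 (SE) and -2.94 ± 0.14 (limma adjusted p = 2.8e-06 and 1.1e-08). Lif differed by -0.67 ± 0.08 at 2 h and -1.26 ± 0.08 at 4 h with FK506 and still lay above nontreated cells, by 1.80 ± 0.08 and 1.17 ± 0.08. With FK506 at 2 h and 4 h, Il12b differed by -2.03 ± 0.10 and -1.69 ± 0.10 and Il2 by -1.61 ± 0.08 and -1.83 ± 0.08. Il23a differed by -1.07 ± 0.14 and -1.72 ± 0.14. The Clcf1 difference was -0.43 ± 0.07 at 2 h, short of the fold threshold, and -0.91 ± 0.07 at 4 h.

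**Figure D4:**
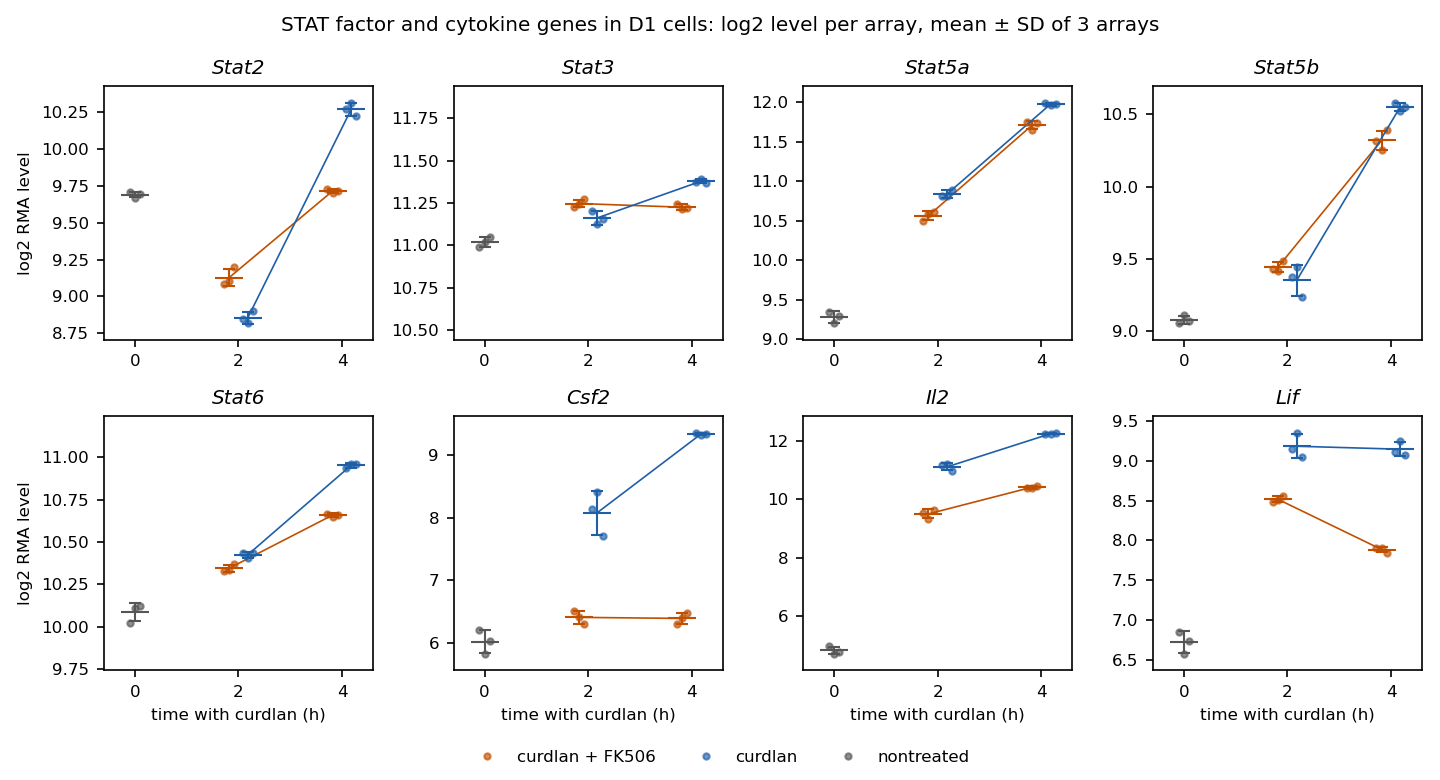
Log2 RMA level of 5 STAT genes and 3 cytokine genes (y axis, a scale per panel) against hours with curdlan (x axis), with nontreated cells at 0. Points are single arrays and bars are the mean ± SD of 3 arrays. Stat5a differs from nontreated cells by 2.70 at 4 h of curdlan and 2.43 at 4 h of curdlan + FK506, while Csf2 at 4 h lies at 6.39 with curdlan + FK506 and at 9.33 with curdlan.

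Of 36 receptor genes 32 were measured, 0 of which passed at 2 h of curdlan (2.2% of all genes raised, 1.4% lowered). At 4 h 3 rose and 3 fell, beside 5.05% of all genes raised and 4.15% lowered, and these counts were not tested. Il12rb2, Il2rb and Il10rb, chains of the receptors for IL-12, IL-2 and IL-10, differed by 1.30 ± 0.08, 0.95 ± 0.09 and 0.90 ± 0.10. Lifr, the LIF receptor, fell by 1.01 ± 0.06 Il12rb1 by 0.71 ± 0.07 and Il6ra, the IL-6 receptor, by 0.69 ± 0.04. At 2 h FK506 raised 1 of the 32, Il21r (0.64 ± 0.05), and lowered 0, beside 0.361% and 0.762% of all genes. At 4 h it raised 1, Il6ra (0.72 ± 0.04), and lowered 2, Il2rb (-0.83 ± 0.09) and Il12rb2 (-0.65 ± 0.08). Of all genes 0.211% were raised and 1.53% lowered at 4 h.

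Among the kinases, 0 of 3 measured JAK genes passed the test in any of the 4 comparisons. Of all genes, curdlan raised 2.2% and lowered 1.4% at 2 h, and raised 5.05% and lowered 4.15% at 4 h. FK506 raised 0.361% and lowered 0.762% at 2 h, and raised 0.211% and lowered 1.53% at 4 h. Jak2 differed by 0.29 ± 0.06 and 0.41 ± 0.06 with curdlan at 2 h and 4 h, Tyk2 by -0.28 ± 0.04 and -0.25 ± 0.04, and Jak1 by 0.11 ± 0.05 and 0.13 ± 0.05. With FK506 the 3 lay between -0.05 and 0.22 at both times. Jak3 is not analysed here.

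Of 6 measured STAT genes, Stat5a rose and Stat2 fell at 2 h of curdlan, and Stat5a, Stat5b and Stat6 rose at 4 h. Of all genes 2.2% were raised and 1.4% lowered at 2 h, and 5.05% raised and 4.15% lowered at 4 h. STAT5, made from Stat5a and Stat5b, carries GM-CSF and IL-2 signals and acts on Cish, while Stat2 serves type I interferon signaling. Stat5a differed by 1.56 ± 0.05 at 2 h and 2.70 ± 0.05 at 4 h (2.95-fold and 6.49-fold, limma adjusted p = 3.1e-11 and 8.4e-14). Stat5b differed by 0.27 ± 0.05 and 1.47 ± 0.05, and Stat6, the IL-4 factor, by 0.34 ± 0.04 and 0.87 ± 0.04. Stat2 differed by -0.83 ± 0.04 at 2 h (limma adjusted p = 6.6e-09) and by 0.58 ± 0.04 at 4 h, just short of the fold threshold.

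FK506 changed 0 of the 6 STAT genes past both limma thresholds at either time. Of all genes it raised 0.361% and lowered 0.762% at 2 h, and raised 0.211% and lowered 1.53% at 4 h. At the adjusted p alone 1 STAT gene was higher and 1 lower at 2 h (4.48% and 3.09% of all genes). At 4 h 5 STAT genes were lower at the adjusted p alone (6.03%). Stat5a differed by -0.27 ± 0.05 at 2 h and -0.27 ± 0.05 at 4 h with FK506, and Stat2 by 0.27 ± 0.04 and -0.55 ± 0.04. The Stat2 effect at 4 h minus that at 2 h was -0.82 ± 0.06 (limma adjusted p = 5.1e-06). Stat3, which carries gp130 signals and acts on Socs3, differed by 0.14 ± 0.04 and 0.36 ± 0.04 with curdlan and by 0.08 ± 0.04 and -0.15 ± 0.04 with FK506. Stat4 lay near 4.40 in nontreated cells, below the lower quartile, and differed by 0.10 ± 0.05 or less.

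Genes known to answer STAT factors that passed the test with curdlan rose, with 1 exception at 2 h. Many genes of this list answer other pathways too, NF-kB among them. Of 19 measured, 8 rose and 1, the repressor gene Bcl6, fell at 2 h of curdlan, and 10 rose and 0 fell at 4 h, where 2.2% of all genes rose and 1.4% fell at 2 h and 5.05% rose and 4.15% fell at 4 h. The list medians were 0.38 and 0.59. The call of Irf9, a partner of Stat2, at 4 h (0.59) was lost when nontreated replicate 1, curdlan 4 h replicate 1 or curdlan 4 h replicate 3 was left out (0.51 at the lowest). Junb, an AP-1 subunit, differed by 2.16 ± 0.07 at 2 h, Icam1, an adhesion molecule, by 1.53 ± 0.04, and Bcl2l1, a survival gene, by 1.39 ± 0.05. At 4 h Cxcl9, a chemokine gene of the interferon gamma response, differed by 3.96 ± 0.08 and Irf7, an interferon regulatory factor, by 1.56 ± 0.08. At 2 h FK506 raised 1 of the 19, Bcl6 (0.75 ± 0.08), and lowered 1, Cxcl9 (-1.03 ± 0.08). At 4 h it raised 0 and lowered 3, Cxcl9 (-3.68 ± 0.08), Irf7 (-1.38 ± 0.08) and Irf1 (-0.72 ± 0.05). Of all genes FK506 raised 0.361% and lowered 0.762% at 2 h, and raised 0.211% and lowered 1.53% at 4 h.

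Few genes of the remaining lists passed the test. Of 13 other inhibitors of JAK-STAT signaling, 0 passed at 2 h of curdlan (2.2% of all genes raised, 1.4% lowered). At 4 h 1 was raised and 1 lowered, beside 5.05% and 4.15% of all genes. Ptpn2, a phosphatase that acts on JAKs and STATs, then rose by 0.71 ± 0.14. Sh2b3, an adaptor that restrains JAK2, fell by 0.66 ± 0.04. The Ptpn2 call rested on nontreated replicate 1, the low array of a group with an SD of 0.40, and without it the difference was 0.48, under the fold threshold. FK506 changed 0 of these 13 at either time by limma at both thresholds. Of all genes it raised 0.361% and lowered 0.762% at 2 h, and raised 0.211% and lowered 1.53% at 4 h. At the adjusted p alone 2 of the 13 were lower at 2 h (3.09% of all genes), and 1 was higher and 3 lower at 4 h (5.64% and 6.03%). Of 4 measured partners of the SOCS box ligase, the largest difference among the curdlan effects at 2 h and 4 h and the FK506 effects at 2 h and 4 h was that of Cul5, the cullin scaffold, at 4 h of curdlan (0.44 ± 0.10, limma adjusted p = 0.00283), short of the fold threshold.

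Of 27 other genes whose proteins have a SOCS box, 1 passed the test in each of the 4 comparisons, and it was Asb2 each time. Of all genes, curdlan lowered 1.4% at 2 h and 4.15% at 4 h, and FK506 raised 0.361% and 0.211%. The count of 1 in 27 at 4 h of curdlan was near the share of all genes. Asb2, which targets filamins for degradation, read 11.9 ± 0.01 (SD, n = 3) with curdlan + FK506 for 2 h, against 11.3 ± 0.05 with curdlan and 11.9 ± 0.03 in nontreated cells. At 4 h it read 11.6 ± 0.01 with curdlan + FK506, against 10.9 ± 0.03 with curdlan. Curdlan lowered it by log2 differences of -0.62 ± 0.04 (SE) and -1.05 ± 0.04, and FK506 raised it by 0.61 ± 0.04 and 0.70 ± 0.04 (limma adjusted p = 1.6e-07 and 3.2e-08), the opposite signs to those of Socs5 at 2 h. Asb2 at 2 h of curdlan + FK506 differed from nontreated cells by -0.01 ± 0.04 (limma adjusted p = 0.912).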

How the data were processed

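RNA of 15 D1 cultures was hybridized to 1-color Affymetrix arrays. Per the labels, the authors deposited log2 values made by RMA (background correction, quantile normalization, median-polish summary) with affy in R 2.15.2. Quantile normalization hides a shift common to all genes. Of 34760 probe sets, 21640 with 1 platform symbol were used, 1321 with several symbols and 11799 with none were left out, and the probe set with the highest mean stood for each of 19937 genes (954 had several).

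Group means were estimated from the 15 arrays together, by limma 3.58.1 under R 4.3.3 (10 residual degrees of freedom, empirical Bayes, two-sided tests). P-values were adjusted by Benjamini-Hochberg over all genes within each of 9 comparisons, and a gene passed at an adjusted p under 0.05 and a fold of at least 1.5. The median SE of a log2 difference was 0.0768 (0.109 for the change of the FK506 effect), and the number of arrays limits the precision. P-values measure the spread between these arrays, labeled biological replicates. On simulated data, 97% to 100% of genes changed by log2 1 were recovered in the 4 curdlan and FK506 comparisons. Smaller changes, such as those near the fold threshold, were not simulated, so their recovery is not known.

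The 8 members and the gene lists were chosen with earlier results of these data known. All SOCS genes and the measured JAK and STAT genes are named. From other lists the rule took up to 5 passing genes of largest difference in each curdlan or FK506 comparison, or the largest where none passed. Not all genes so taken are printed, and Il10ra, Bcl3, Cblb, Usp18, Rbx1 and Rnf7 are among those left out. The 3 genes most like each SOCS gene that passed, and Actb, Clec7a and Rcan1, complete the rule. Bcl6 at 2 h of curdlan, Irf9, and other comparisons of genes so named, were added after their values were seen. Alternatives were a replicate block, fits on the compared groups alone, the mean of probe sets, a filter on dim genes, repeated quantile normalization, median centring, array weights, a trended robust prior, other fold thresholds, and leaving out arrays. The labels give replicate numbers in every group, but same-numbered arrays did not deviate together (9 of 30 pairs over 0.1), so numbers were not taken as pairs.

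Promoters (32851 windows of 27025 genes) and gene spans are RefSeq entries of GRCm38.p6, matched by symbol for 4 and 8 of the 8 genes. The arrays' own build is not given in the sources used here.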

Additional observations from a re-analysis of the deposited data

Results flagged for a closer look

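The FK506 effect on Socs5, the gene of a SOCS box protein that acts on the epidermal growth factor receptor, differed between the 2 times. FK506 minus no FK506 in curdlan-treated cells was -0.78 ± 0.06 (log2, SE, 3 arrays per group) at 2 h and -0.28 ± 0.06 at 4 h, and the 4 h effect minus the 2 h effect was 0.50 ± 0.08 (limma adjusted p = 0.00224). All 3 arrays with FK506 lay below all 3 without at both times. It drew attention because the test of that difference itself passed the p threshold, as did 1.39% of all genes in the higher and 2.98% in the lower direction.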

How the results depend on the processing

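The 72 differences of SOCS genes were recomputed under 26 alternatives each. All 11 that passed the test kept their direction, and they lost the call only with a fold threshold of 2. For the SOCS family, the number of genes past the test at that threshold was 1 of 3 in both curdlan comparisons with nontreated cells, 0 for FK506 at 2 h, 1 for curdlan + FK506 at 2 h against nontreated cells, and 0 for curdlan 4 h against 2 h. With no fold threshold it was 4 for curdlan 2 h, 3 for curdlan + FK506 2 h against nontreated cells, 5 for curdlan 4 h, 2 for FK506 at 2 h, 2 for FK506 at 4 h, 7 for curdlan + FK506 4 h against nontreated cells, 6 for curdlan 4 h against 2 h, 1 for curdlan + FK506 4 h against 2 h and 1 for the change of the FK506 effect. Many genes pass at the adjusted p alone, as 10.3% of all genes were higher and 15.7% lower for curdlan + FK506 4 h against nontreated cells. These shares were 4.48% and 3.09% for FK506 at 2 h, 5.64% and 6.03% at 4 h, and 1.39% and 2.98% for its change. For curdlan 2 h, curdlan 4 h, curdlan 4 h against 2 h and the fold of 2, shares are not given here. Median centring, at both thresholds, gave 2 SOCS genes for curdlan + FK506 4 h against nontreated cells, since Cish then passed (0.64), and leaving out 1 array gave 1 to 2 there. The replicate block moved no SOCS family count (3 at curdlan 2 h, 1 for FK506 at 2 h), and over all genes the pairing by number gave 717 calls in place of 718 at curdlan 2 h. Of 76 differences of other pathway genes that passed, 74 kept the call in every fit without 1 array (an alternative chosen after seeing the data), and those of Ptpn2 and Irf9 at curdlan 4 h did not.

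Directions turned in 35 of 1872 values, all of differences that had not passed. For Socs1 at curdlan 2 h the value was 0.016 with repeated quantile normalization, 0.034 with centring, 0.031 with array weights, 0.040 without both outlying arrays, and -0.051 to 0.073 leaving out 1 array. With centring, Socs1 was 0.0024 at curdlan 4 h, -0.0065 for FK506 at 4 h and 0.022 for curdlan + FK506 2 h against nontreated cells. For curdlan + FK506 4 h against 2 h, Socs1 was -0.026 with centring, -0.0046 with weights and -0.017 to 0.025 leaving out 1 array, Socs3 was -0.073 to 0.010, and Socs7 was 0.030 with quantile normalization, 0.0019 with weights and -0.034 to 0.0050. Socs4 at curdlan 2 h was -0.061 with weights, -0.036 without both arrays and -0.092 to 0.074 leaving out 1, and for FK506 at 4 h it was -0.021 with centring and -0.020 to 0.045. Socs2 at curdlan 2 h was -0.13 to 0.018, Socs6 -0.019 to 0.073. For FK506 at 4 h Socs6 was -0.021 with the mean of probe sets and -0.00042 to 0.071. Cish for FK506 at 2 h was 0.058 with centring and -0.087 to 0.028 leaving out 1 array, and for curdlan 4 h against 2 h 0.0087 with centring. Socs2 for the change of the FK506 effect was 0.0049 with weights. The cause of these turns was not tested.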
